A study of Mus musculus with 48 samples.

Results

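*Hmx2*, *Hmx3*, *Nkx2-1*, *Nkx2-2* and *Nkx2-4* encode homeodomain transcription factors that are expressed in parts of the developing hypothalamus, and they are described here as a set of hypothalamic identity genes. The set was given by name, and all 5 genes were found among the 16510 genes of the deposited table. *Nkx2-1* is needed to form the ventral hypothalamus, and *Nkx2-4* is its close relative. *Nkx2-2* is switched on by Hedgehog signalling in the ventral neural tube, in the brain as well as in the spinal cord. *Hmx2* and *Hmx3* are a neighbouring pair of NK-type genes that together are needed for the growth hormone releasing hormone neurons of the arcuate nucleus. Hox genes, in contrast, give positional identity to the hindbrain and spinal cord, and are normally silent in the hypothalamus. The product of *Eed* belongs to PRC2, a polycomb complex that places a repressive methyl mark on histones and keeps genes such as the Hox clusters silent where they are not used.

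Single cells of the mouse hypothalamus were sequenced at E18.5. Control embryos were Eed fl/fl without Cre (2 female and 4 male embryos), and *Eed-cKO* embryos were Eed fl/fl; Sox1-Cre/+ (5 female and 4 male embryos). Both genotypes thus carried the floxed allele, and Sox1-Cre is active in neural cells, so that vascular and immune cells are not its targets. Each hypothalamus had been divided into pieces, and the libraries of 1 embryo were summed, so that the embryo was the replicate (n = 6 control and n = 9 *Eed-cKO*, from 22 and 26 libraries). A control embryo held 1042 to 1664 cells and 5363119 to 7487417 unique molecular identifiers (UMIs, tags that count each captured RNA molecule once). An *Eed-cKO* embryo held 217 to 1111 cells and 658175 to 6299181 UMIs. The library names gave 4 control and 6 *Eed-cKO* litters, if the leading number of a name is the litter, and 0 litters held both genotypes, so that genotype and litter cannot be told apart. Of 14019 cell barcodes, 101 occurred in more than 1 library.

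*Eed* itself was checked first. In neurons it was at 28.0 to 32.7 CPM in the control embryos (median 31.7) and at 18.2 to 27.3 in the *Eed-cKO* embryos (median 22). CPM are UMIs scaled to a common library size, here with TMM factors of the embryo sums. The genotypes did not overlap, and the fitted log2 fold change was −0.44 ± 0.10 (SE, adjusted p = 0.00215). In glia it was at 32.6 to 52.3 CPM in control (median 38.3) and at 12.3 to 36.2 in *Eed-cKO* (median 24.7), with a log2 fold change of −0.70 ± 0.26 that did not pass the threshold (adjusted p = 0.0946). Libraries of this kind read RNA near its 3′ end, which the deletion need not remove, so the level does not measure the deletion. On the opposite strand *E230029C05Rik* shares exon sequence with *Eed*. The strand used in counting was not given in the sources used here, so reads of the pair could not be separated.

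The table carried no cell types, so cells were clustered without the 5 genes and without the Hox genes. Clusters were then named from marker genes. The neurons were 9808 cells of 12 clusters (5198 control and 4610 *Eed-cKO*). The glia were 1 astrocyte-like, 1 tanycyte-like and 1 ependymal-like cluster (471 control and 846 *Eed-cKO* cells). No cluster was named for oligodendrocyte precursors, although *Sox10* and *Gpr17*, genes of these cells, led the cluster of cycling progenitor-like cells. The 2 genotypes filled these classes differently. A neuronal cluster led by *Tfap2b* held 34.2% of the *Eed-cKO* neurons and 0.827% of the control neurons. The cluster led by *Dlx1* and *Six6* beside *Hmx2* and *Hmx3* held 15.5% of control and 3.43% of *Eed-cKO* neurons, the cluster led by *Sp8* 15.1% and 2.08%, and the cluster led by *Gbx2* and *Tcf7l2* 6.73% and 0.824%. Among glia, astrocyte-like cells were 71.5% in control and 41.7% in *Eed-cKO*, tanycyte-like cells 19.5% and 34.5%, and ependymal-like cells 8.92% and 23.8%. The split of glia depends on the clustering. With all variable genes used, the astrocyte-like cluster held 342 control and 521 *Eed-cKO* cells, the tanycyte-like one 77 and 244 and the ependymal-like one 41 and 44, so that the ependymal-like excess of *Eed-cKO* was not seen. At resolution 0.5 the ependymal-like cluster again held 41 and 44 cells, and no cluster was tanycyte-like. A value of neurons or glia therefore averages over partly different cells in the 2 genotypes. Clusters that stayed unnamed held 14.5% of control and 11.1% of *Eed-cKO* cells. Of these, 2 had few UMIs per cell, and the other, of 1 control and 223 *Eed-cKO* cells, was led by *Alas2*, *Cga* and *Crybb1*.

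The genes lie at 3 places of the genome (GENCODE vM21, GRCm38). *Hmx3* (chr7:131542867-131544925, plus strand) and *Hmx2* (chr7:131548773-131558014, plus strand) are 3847 bases apart. *Nkx2-4* (chr2:147083316-147085445, minus strand) and *Nkx2-2* (chr2:147177546-147194243, minus strand) are 92100 bases apart on the same strand, and *Nkx2-1* (chr12:56531958-56536908, minus strand) stands alone. The antisense gene *Nkx2-2os* overlaps exons of *Nkx2-2* and is not among the counted genes, so *Nkx2-2* counts may include its reads if counting ignored strand. Promoters from RefSeq (GRCm38.p6, 300 bases around a start) were found for all 5 genes, and they are shown for the 2 neighbouring pairs, so that the genes of a pair can be compared. CG dinucleotides, which are dense in many promoters bound by polycomb complexes, are in capitals.
Hmx3: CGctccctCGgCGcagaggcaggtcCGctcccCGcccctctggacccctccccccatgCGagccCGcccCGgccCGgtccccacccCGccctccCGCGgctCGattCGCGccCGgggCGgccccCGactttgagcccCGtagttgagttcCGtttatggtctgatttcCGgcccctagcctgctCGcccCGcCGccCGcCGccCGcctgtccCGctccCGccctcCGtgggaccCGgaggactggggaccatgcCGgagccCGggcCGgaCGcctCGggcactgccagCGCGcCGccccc
Hmx2: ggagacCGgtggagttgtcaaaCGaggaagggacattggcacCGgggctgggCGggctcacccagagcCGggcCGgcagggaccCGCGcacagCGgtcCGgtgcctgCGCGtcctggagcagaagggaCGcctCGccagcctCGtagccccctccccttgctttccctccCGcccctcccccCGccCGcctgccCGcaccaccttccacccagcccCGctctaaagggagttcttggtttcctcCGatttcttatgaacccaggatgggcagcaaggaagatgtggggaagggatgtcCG
Nkx2-2: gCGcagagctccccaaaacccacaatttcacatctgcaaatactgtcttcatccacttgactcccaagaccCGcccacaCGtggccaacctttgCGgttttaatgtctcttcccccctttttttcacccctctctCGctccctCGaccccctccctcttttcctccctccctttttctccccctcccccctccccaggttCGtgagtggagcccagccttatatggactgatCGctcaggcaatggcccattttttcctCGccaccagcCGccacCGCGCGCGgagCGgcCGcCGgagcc
Nkx2-4: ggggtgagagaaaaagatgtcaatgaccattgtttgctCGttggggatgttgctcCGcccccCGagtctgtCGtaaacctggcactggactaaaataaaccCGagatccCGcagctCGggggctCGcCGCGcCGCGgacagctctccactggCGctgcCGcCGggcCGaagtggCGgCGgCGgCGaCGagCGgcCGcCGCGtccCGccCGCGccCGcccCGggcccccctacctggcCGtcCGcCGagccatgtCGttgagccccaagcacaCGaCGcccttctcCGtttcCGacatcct
These windows are chr7:131542713-131543012, chr7:131554043-131554342, chr2:147186353-147186652 and chr2:147085296-147085595. The *Hmx3* window holds 39 CG dinucleotides and the *Nkx2-4* window 38, and 4.45% and 4.95% of the 32851 RefSeq promoters of this length hold at least as many. The median promoter holds 7. The *Nkx2-2* window holds 17, that of *Nkx2-1* 12, and the 2 start sites of *Hmx2* have 22 (shown) and 2.

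In neurons, *Nkx2-1*, *Nkx2-2* and *Nkx2-4* were higher in *Eed-cKO*, and no difference was detected for *Hmx2* and *Hmx3*. Of 15073 genes tested, 14% passed the threshold (adjusted p below 0.05), 7.46% higher and 6.55% lower in *Eed-cKO*, and 3 of the 5 genes were among those that were higher. *Nkx2-1* was at 121 to 168 CPM in the control embryos (median 132) and at 84.6 to 270 in the *Eed-cKO* embryos (median 191). Of the 9 *Eed-cKO* embryos, 8 were above the highest control embryo and 1 was below the lowest. Its log2 fold change was 0.48 ± 0.13 (SE, adjusted p = 0.0153). *Nkx2-2* was at 10.6 to 21 CPM in control (median 16.6) and at 19.1 to 36.1 in *Eed-cKO* (median 22.5). The genotypes overlapped by 1 *Eed-cKO* embryo, and the log2 fold change was 0.65 ± 0.15 (adjusted p = 0.00300). *Nkx2-4* was the sparsest of the set, with 43 UMIs in all control neurons and 98 in all *Eed-cKO* neurons. Control embryos ranged from 0.174 to 3.08 CPM (median 0.687) and *Eed-cKO* embryos from 1.52 to 6.99 (median 3.93), with 7 of 9 *Eed-cKO* embryos above every control embryo. Its log2 fold change was 1.54 ± 0.41 (adjusted p = 0.0114). Genes whose embryos did not overlap between genotypes were 3.20% of those tested, and none of the 5 genes was one of them.

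The Hmx pair varied as much within a genotype as between them. *Hmx2* was at 7.71 to 15.6 CPM in control neurons (median 12.8) and at 5.58 to 21.1 in *Eed-cKO* neurons (median 9.82), with a log2 fold change of −0.28 ± 0.19 (adjusted p = 0.375). *Hmx3* was at 6.47 to 15.6 CPM in control (median 8.86) and at 7.10 to 16.2 in *Eed-cKO* (median 9.32), with a log2 fold change of 0.08 ± 0.20 (adjusted p = 0.856). Intervals of about 2 SE on each side reached from −0.66 to 0.10 for *Hmx2* and from −0.32 to 0.47 for *Hmx3*, so changes within them are not excluded.

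**Figure D1:**
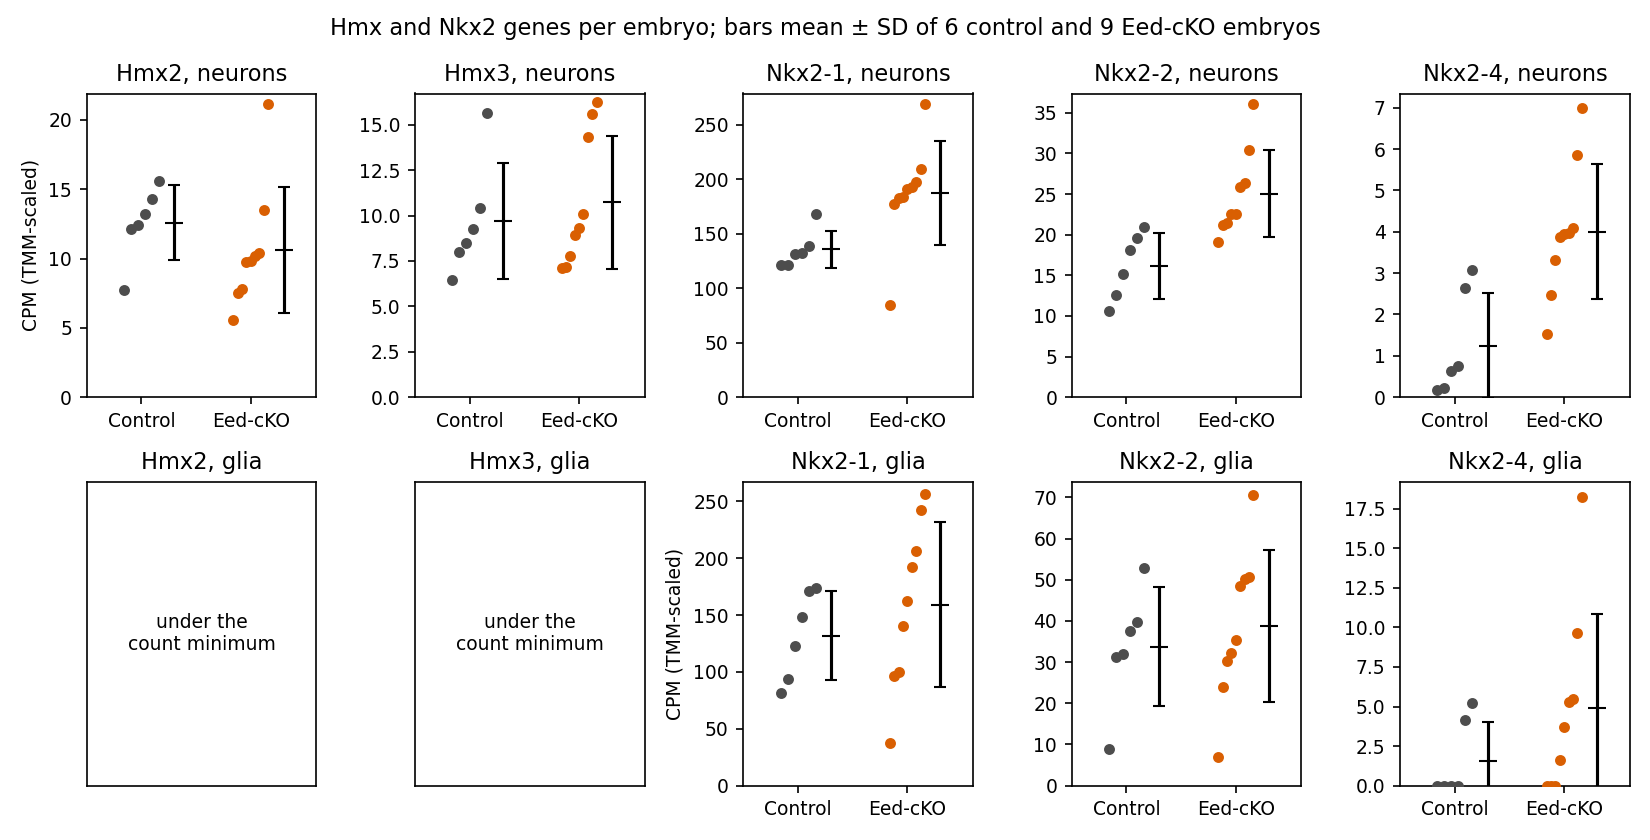
Level of each gene (CPM, vertical axis, from 0) in the neurons and glia of each embryo, control in grey and *Eed-cKO* in orange, with the mean ± SD (bars cut at 0). In neurons, 8 of 9 *Eed-cKO* embryos lie above every control embryo for *Nkx2-1* and for *Nkx2-2*, while the embryos mix for *Hmx2* and *Hmx3*, and in glia the genotypes overlap for each gene that had enough counts.

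Limits of the cell set bear on *Nkx2-1*. With neurons taken as the cells with *Slc17a6* or *Slc32a1* UMIs its log2 fold change was 0.36 (adjusted p = 0.0856), and without the 2 clusters led by telencephalon or thalamus genes it was 0.35 (adjusted p = 0.0660), an alternative chosen after seeing the data. Markers of neighbouring tissue were summed as well, with no test of the sums. The 10 thalamus and prethalamus markers summed to 1182 ± 503 CPM in control neurons (SD, n = 6; *Tcf7l2* the most abundant) and 794 ± 308 in *Eed-cKO* neurons (n = 9; *Zic1* the most abundant). The 10 telencephalon markers summed to 232 ± 63.7 and 246 ± 33.4 CPM, with *Bcl11b* the most abundant in both. The 6 pituitary markers in the table, of 10, summed to 292 ± 32.4 and 352 ± 42.9 CPM, with *Chga*, which neurons also express, the most abundant, and with *Lhb* and *Pitx1* at 0 in control. Their part in the results was not tested beyond the left-out clusters.

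The share of neurons with a UMI, averaged over embryos and compared by an exact two-sided permutation of the embryos (all splits, 10 tests over 5 genes and 2 classes, p not adjusted), gave the following. *Nkx2-2* was found in 4.27% ± 0.863 of control neurons (SD, n = 6) and in 8.79% ± 2.65 of *Eed-cKO* neurons (n = 9, exact p = 0.00140), with no overlap between embryos. *Nkx2-4* was found in 0.704% ± 0.689 and 1.64% ± 0.705 (exact p = 0.0276, above 0.05 without any 1 of control embryos 1, 2, 4 and 6), and *Nkx2-1* in 28.5% ± 4.15 and 36.6% ± 9.34 (exact p = 0.0679). *Hmx2* was found in 4.95% ± 0.748 of the neurons of control embryos and 3.50% ± 1.58 of those of *Eed-cKO* embryos (exact p = 0.0579), and *Hmx3* in 4.09% ± 1.23 and 4.00% ± 1.13 (exact p = 0.887). Control neurons were deeper (median 5562.5 UMIs against 4836), so every cell was also thinned to 2000 UMIs. Shallower neurons, 258 in control and 331 in *Eed-cKO*, were dropped. *Nkx2-2* was then found in 2.07% ± 0.566 and 4.61% ± 1.04 of neurons (exact p = 0.000599), *Nkx2-1* in 18.3% ± 1.90 and 24.7% ± 6.83 (exact p = 0.0402), *Nkx2-4* in 0.197% ± 0.259 and 0.716% ± 0.393 (exact p = 0.0128), *Hmx2* in 2.25% ± 0.812 and 1.99% ± 0.888 (exact p = 0.567) and *Hmx3* in 2.04% ± 0.924 and 2.26% ± 0.882 (exact p = 0.639). Counting only cells with 2 or more UMIs, the *Nkx2-2* shares were 2.21% ± 0.805 and 3.10% ± 1.46 (exact p = 0.199). Free RNA can give UMIs to a droplet, which was not measured here. Vascular, leptomeningeal and immune cells, which should lack these genes, held *Nkx2-1* UMIs as well, in 6.34% of the 347 cells of control and 8.52% of the 481 cells of *Eed-cKO* embryos, and *Nkx2-2* in 1.15% and 1.66%, at median depths of 3946 and 3708 UMIs. *Hmx2* was found in 0.576% and 1.04% of them, *Hmx3* in 0.576% and 0.416%, and *Nkx2-4* in 1 cell of each genotype.

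In glia no difference between genotypes was detected for any of the 5 genes, while 9.96% of 12988 genes tested passed the threshold. *Hmx2* had 11 and *Hmx3* 7 UMIs in all glia, under the minimum of 15, and were not tested. Their shares of glial cells, 0.637% and 0.212% in control and 0.473% and 0.473% in *Eed-cKO*, were near those of the non-neural cells. All 5 control *Hmx2* UMIs came from embryo 5, as did 4 of the 6 *Eed-cKO* UMIs of each gene from *Eed-cKO* embryo 5, and their source was not tested. *Nkx2-1* was at 81.5 to 174 CPM in control glia (median 135) and at 37.6 to 256 in *Eed-cKO* glia (median 162), with a log2 fold change of 0.37 ± 0.24 (adjusted p = 0.412). *Nkx2-2* ranged from 8.92 to 53.0 CPM over the control embryos (median 34.7) and from 7.04 to 70.6 over the *Eed-cKO* embryos (median 35.4), with a log2 fold change of 0.16 ± 0.33 (adjusted p = 0.866). *Nkx2-4* had 3 UMIs in control glia and 17 in *Eed-cKO* glia (log2 fold change 1.51 ± 0.87, adjusted p = 0.335). The genotype effect in glia was set against that in neurons in 1 model with the embryo as a block, in which 4.06% of 15577 genes passed. None of the 5 genes did. The difference of the log2 fold changes was −0.14 ± 0.19 for *Nkx2-1* (adjusted p = 0.820), −0.59 ± 0.36 for *Nkx2-2* (adjusted p = 0.478) and 0.13 ± 1.02 for *Nkx2-4* (adjusted p = 0.998).

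**Figure D2:**
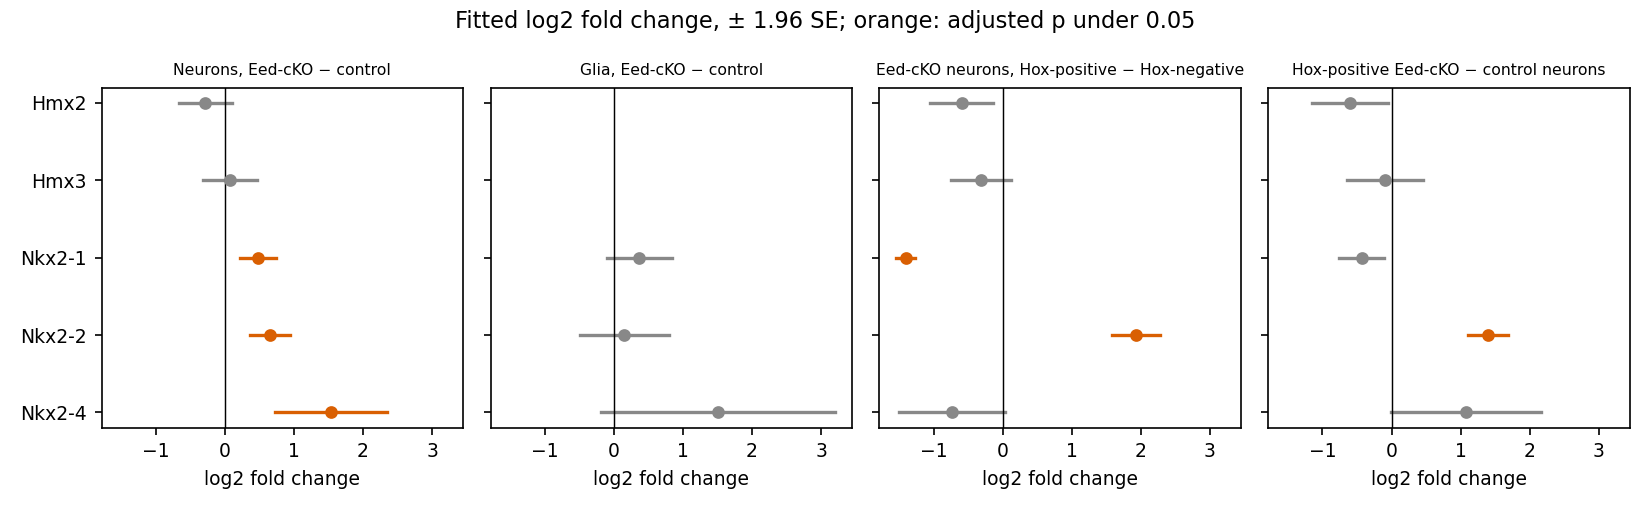
Fitted log2 fold change (horizontal axis) of each gene in 4 comparisons, with bars of about 2 SE on each side; orange marks an adjusted p below 0.05. *Nkx2-2* lies to the right of 0 in neurons, in Hox-positive against Hox-negative neurons and in Hox-positive against control neurons, and *Nkx2-1* lies to the right in neurons and to the left in Hox-positive against Hox-negative neurons.

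By cell class, the 5 genes differed in where they were highest, given as plain CPM per embryo (mean ± SD) with no test. In control, *Nkx2-1* was highest in tanycyte-like cells (295 ± 170, n = 6). Then came neurons with *Slc17a6* UMIs alone, the glutamatergic neurons (172 ± 35.8), cycling progenitor-like cells (149 ± 126), neurons with neither transporter (149 ± 36.4), astrocyte-like cells (102 ± 32.2) and neurons with both transporters (88.1 ± 21). Neurons with *Slc32a1* alone, the GABAergic neurons, were lower (51.9 ± 15.4), and non-neural cells were at 28.9 ± 15.8. Neighbours in this order lay within the larger SD of the 2, except that astrocyte-like cells lay further below neurons with neither transporter, GABAergic neurons further below neurons with both, and non-neural cells further below GABAergic neurons. Ependymal-like cells are left out of the order, because only 2 control embryos had enough of them. In *Eed-cKO*, GABAergic neurons held 151 ± 39.3 (n = 9) and glutamatergic neurons 242 ± 70.3, while neurons with both transporters held 65.7 ± 22.7. Astrocyte-like cells held 63.6 ± 34.5 and tanycyte-like cells 405 ± 171 (n = 8), so that the glial types differed from control in opposite directions, within 1 SD for tanycyte-like cells. *Nkx2-2* was highest in control in cycling progenitor-like cells (103 ± 27.7, n = 6). Genes of oligodendrocyte precursors, *Sox10* and *Gpr17*, were among those that led this cluster, so the 2 cell types were not separated. Astrocyte-like cells came next (41.3 ± 16.6). *Nkx2-2* lay between 12.4 and 17.4 in the 4 neuronal groups, which did not differ beyond their spread. Tanycyte-like cells held 1 *Nkx2-2* UMI in control. In *Eed-cKO*, neurons with both transporters held 40.4 ± 14.5 *Nkx2-2* CPM (n = 9) against 17.1 ± 18 in control. *Hmx2* in *Eed-cKO* cycling progenitor-like cells stood at 7.44 ± 7.0 CPM (n = 6, 8 UMIs), with 0 UMIs of it in the control cells. Among neurons in control, *Hmx2* and *Hmx3* were at 23.5 ± 6.60 and 19.8 ± 6.78 CPM in GABAergic neurons, 21 ± 7.82 and 14.6 ± 6.72 in neurons with neither transporter, 12.3 ± 6.03 and 10.1 ± 10.7 in neurons with both and 5.19 ± 2.07 and 3.87 ± 1.58 in glutamatergic neurons. The first 2 groups did not differ beyond their spread. The *Eed-cKO* values in the same order were 23.8 ± 12.6 and 20.7 ± 15.3, 17.5 ± 15.2 and 21.3 ± 10.5, 11.7 ± 7.97 and 13.8 ± 14.3, and 6.56 ± 5.21 and 4.80 ± 4.15. *Nkx2-4* stood at 6.41 ± 3.89 CPM in *Eed-cKO* glutamatergic neurons against 1.21 ± 1.34 in control. In tanycyte-like cells it was at 14.5 ± 17.3 in *Eed-cKO* (n = 8, 13 UMIs) and had 0 UMIs in the 92 control cells.

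**Figure D3:**
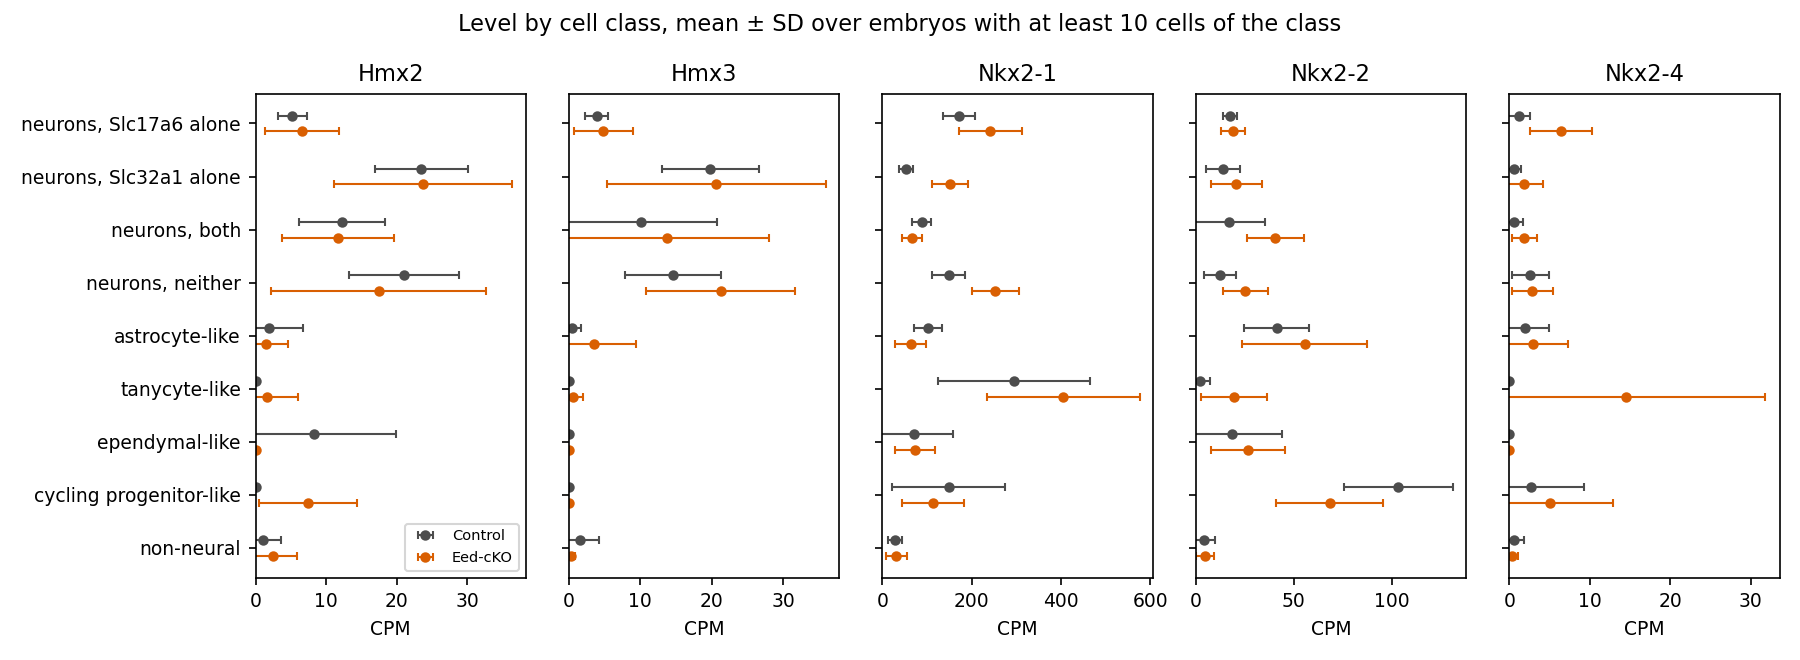
Level of each gene (CPM, horizontal axis) by cell class, as mean ± SD over the embryos with at least 10 cells of the class, control in grey and *Eed-cKO* in orange (bars cut at 0). *Hmx2* and *Hmx3* are highest in neurons with *Slc32a1* alone in control, *Nkx2-1* in tanycyte-like cells and *Nkx2-2* in cycling progenitor-like cells. The cycling progenitor-like cluster also had *Sox10* and *Gpr17* among its leading genes. Only 2 control embryos had enough ependymal-like cells.

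Within neurons, the clusters differed in how much of the UMIs they held. *Nkx2-1* was highest in the cluster led by *Foxb1*, a mammillary gene, with 752 ± 110 CPM over 6 control and 951 ± 107 over 8 *Eed-cKO* embryos, and this cluster held 33.0% of the control and 35.7% of the *Eed-cKO* neuronal *Nkx2-1* UMIs. The cluster led by *Emx2* followed with 403 ± 104 and 442 ± 93.4. The cluster led by *Lhx6* was at 195 ± 24.7 in control (n = 6, at most 236) and 410 ± 81.6 in *Eed-cKO* (n = 7, at least 320). *Hmx2* and *Hmx3* were at 52.1 ± 19.7 and 36.2 ± 17.1 CPM in control in the cluster that they lead with *Dlx1*, which held 48.8% and 46.5% of their control neuronal UMIs. In *Eed-cKO* this cluster held 21% and 15.1% of them, at levels that were not lower (69.2 ± 39.1 and 42.8 ± 22.3 CPM, n = 6). The cluster led by *Cited1* and *Npy* held 44.3% and 46.3%, against 16.9% and 19.1% in control, at 35.8 ± 25.5 *Hmx2* CPM in *Eed-cKO* (n = 9) and 25.3 ± 13.5 in control (n = 6). *Nkx2-2* moved furthest. In control, 35.2% of its neuronal UMIs lay in the cluster led by *Avp* and *Trh*, and 16.9% in the ventromedial cluster led by *Nr5a1*. In *Eed-cKO*, 61.7% lay in the cluster led by *Tfap2b* (46.6 ± 14.4 CPM, n = 9), whose few control cells were at 139 ± 157 CPM (n = 3, 5.74% of the control UMIs), and the *Avp* cluster was at 11.8 ± 6.04 CPM (n = 8) against 33.7 ± 13.5 in control (n = 6). The ventromedial cluster was at 143 ± 75.3 (n = 6) against 59.8 ± 27.3.

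Cells with Hox UMIs were then compared with cells without them. Of the *Eed-cKO* neurons, 2058 of 4610 held at least 1 Hox UMI (44.6%; 34.5% to 57.4% over the embryos), at a median depth of 4898.5 UMIs against 4792 in the others, and of the control neurons 5 of 5198 did. In *Eed-cKO* glia the count was 421 of 846. Of the 481 *Eed-cKO* non-neural cells, 12.5% held Hox UMIs as well, and the source of these was not tested. Of the 2058 neurons, 1437 belonged to the cluster led by *Tfap2b*.

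In Hox-positive neurons *Nkx2-1* was lower and *Nkx2-2* higher than in Hox-negative neurons of the same embryos. Of 14061 genes tested, with the Hox genes left out, 12.5% passed the threshold, 6.51% higher and 6.01% lower, and of the 5 genes 1 was higher and 1 was lower. *Nkx2-1* was at 152 to 380 CPM in Hox-negative neurons (median 270) and at 35.1 to 162 in Hox-positive neurons (median 101), and was lower in 9 of 9 embryos. The log2 fold change was −1.40 ± 0.07 (adjusted p = 2.0e-24). *Nkx2-2* was at 0 to 24.1 CPM in Hox-negative neurons (median 9.31) and at 23.6 to 55.5 in Hox-positive neurons (median 46.8), and was higher in 9 of 9 embryos, with a log2 fold change of 1.93 ± 0.18 (adjusted p = 9.8e-14). *Hmx2* was lower in 8 of 9 embryos (median 11.5 CPM in Hox-negative and 9.20 in Hox-positive neurons), which did not pass the threshold (log2 fold change −0.59 ± 0.23, adjusted p = 0.0897). *Hmx3* was lower in 7 of 9 (−0.31 ± 0.22, adjusted p = 0.445), and *Nkx2-4*, with 66 and 32 UMIs, in 6 of 9 (−0.73 ± 0.39, adjusted p = 0.257).

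**Figure D4:**
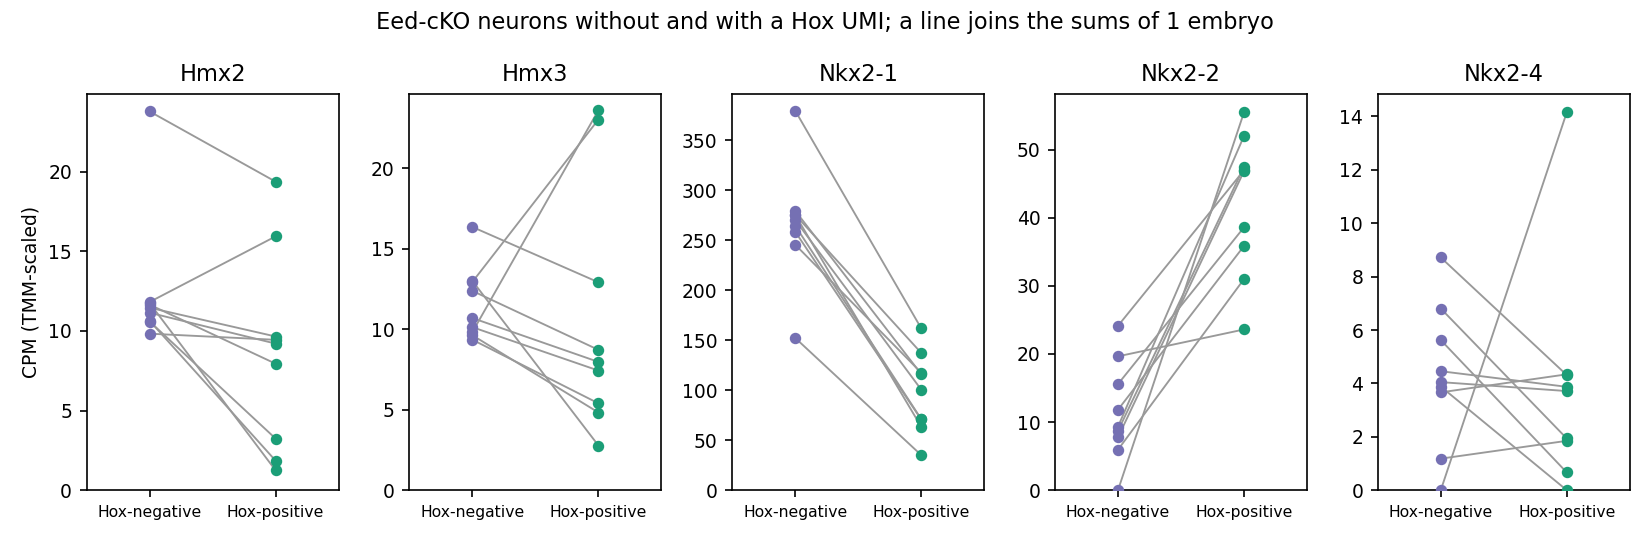
Level of each gene (CPM, vertical axis, from 0) in the Hox-negative and Hox-positive neurons of the 9 *Eed-cKO* embryos, with a line for each embryo. All 9 lines fall for *Nkx2-1* and all 9 rise for *Nkx2-2*, while the lines of *Hmx2*, *Hmx3* and *Nkx2-4* run both ways.

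The cluster led by *Tfap2b* carries much of the *Nkx2-1* contrast and a smaller part of the *Nkx2-2* contrast. Without it, an alternative chosen after seeing the data, the log2 fold change was −0.51 for *Nkx2-1* (adjusted p = 8.2e-08), 1.37 for *Nkx2-2* (adjusted p = 1.8e-05) and 0.31 for *Hmx2* (adjusted p = 0.850). When a positive cell had to hold at least 2 Hox UMIs, *Hmx2* passed the threshold (log2 fold change −1.01, adjusted p = 0.00278).

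Hox-positive neurons still held *Nkx2-1*. With each cell thinned to 2000 UMIs before any gene was read, 1579 Hox-positive and 2700 Hox-negative neurons were compared. *Nkx2-1* was found in 13.2% ± 5.56 and 31.7% ± 7.40 of them (SD, n = 9), lower in 9 of 9 embryos (exact sign-flip permutation, 5 tests, p = 0.00391, the smallest it can give). The share in *Eed-cKO* non-neural cells thinned in the same way was 3.88%. *Nkx2-2* was found in 8.43% ± 1.87 of Hox-positive and 2.20% ± 1.36 of Hox-negative neurons (n = 9), higher in 8 of 9 embryos (exact permutation p = 0.00781). *Hmx2* was found in 1.33% ± 1.01 and 2.46% ± 1.38 (exact permutation p = 0.0898), *Hmx3* in 2.39% ± 1.38 and 2.25% ± 1.02 (exact permutation p = 0.801) and *Nkx2-4* in 0.685% ± 0.907 and 0.782% ± 0.437 (exact permutation p = 0.824). Unthinned, *Nkx2-1* was found in 24.5% ± 9.35 and 46.9% ± 10.5 of the neurons and *Nkx2-2* in 15% ± 4.08 and 3.19% ± 1.77. *Hmx2* was then found in 3.27% ± 2.29 and 3.67% ± 1.25, lower in 4 of 9 embryos, where thinned cells gave 7 of 9. Within single clusters with at least 20 thinned Hox-positive cells, the *Nkx2-1* share ran both ways. It was lower in Hox-positive than in Hox-negative cells of the clusters led by *Lhx6* (35.1% of 74 against 61.2% of 67), *Cited1* (31.8% of 66 against 40.6% of 650), *Avp* (5.71% of 70 against 14.2% of 282), *Sp8* (8.70% of 23 against 20.6% of 68) and *Neurod6* (10.3% of 29 against 19.7% of 244). It was near equal in those led by *Tfap2b* (10.9% of 1225 against 10.3% of 253) and *Foxb1* (77.3% of 22 against 76.8% of 353), and higher in the one led by *Hmx2* (21.2% of 33 against 13.7% of 117). For *Nkx2-2* the share was higher in Hox-positive cells of the *Tfap2b* (9.88% against 5.53%), *Cited1* (4.55% against 0.615%), *Sp8* (13% against 4.41%) and *Neurod6* clusters (6.90% against 1.23%), and lower in the *Lhx6* (9.46% against 16.4%), *Avp* (1.43% against 1.77%), *Hmx2* (0 against 1.71%) and *Foxb1* clusters (0 against 0.283%). Thinning also removes Hox UMIs, so a Hox-negative cell here may have held some at full depth. In the *Tfap2b* cluster 1437 of 1576 *Eed-cKO* cells were Hox-positive at full depth, so its 253 Hox-negative cells include such cells. Its near equal *Nkx2-1* shares therefore do not compare cells with and without Hox UMIs cleanly. These shares within clusters are counts of cells and were given no test.

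Against control neurons, the Hox-positive neurons of *Eed-cKO* held more *Nkx2-2*, and no other gene of the set passed the threshold. Of 14665 genes tested, 16.5% passed, 8.11% higher. *Nkx2-2* was at 23.7 to 54.2 CPM in Hox-positive neurons (median 46.2) and at 10.7 to 20.9 in control neurons (median 16.6), without overlap, and the log2 fold change was 1.40 ± 0.15 (adjusted p = 1.5e-08). *Nkx2-1* was at 34.3 to 160 CPM in Hox-positive neurons (median 99.3) against 121 to 170 in control (median 132), below every control embryo in 7 of 9 embryos, with a log2 fold change of −0.43 ± 0.17 (adjusted p = 0.0731). With at least 2 Hox UMIs it was −0.85 (adjusted p = 5.7e-05), and *Hmx2* then also passed (−1.02, adjusted p = 0.0133). The log2 fold changes with 1 Hox UMI were −0.60 ± 0.28 for *Hmx2* (adjusted p = 0.158), −0.09 ± 0.28 for *Hmx3* (adjusted p = 0.880) and 1.08 ± 0.55 for *Nkx2-4* (adjusted p = 0.198). The 2 sides differ in make-up: the *Tfap2b* cluster held 1437 of the 2058 Hox-positive neurons and 0.827% of control neurons. In that cluster *Nkx2-2* was at 46.6 ± 14.4 plain CPM over all *Eed-cKO* cells (n = 9). Its few control cells were at 139 ± 157 (n = 3). How far make-up accounts for the *Nkx2-2* difference was not tested. This comparison shares its control neurons with that of all neurons.

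In *Eed-cKO* glia the thinned shares showed the same directions, as a description. *Nkx2-1* was found in 12.6% ± 8.29 of Hox-positive and 32.7% ± 14 of Hox-negative glia (8 embryos with at least 10 cells of each, 293 and 369 cells), lower in 8 of 8 embryos. *Nkx2-2* was found in 9.52% ± 5.93 and 3.45% ± 2.48, higher in 7. The glial types differ in both genes, and with the clusters used here 237 of 353 astrocyte-like and 138 of 201 ependymal-like cells were Hox-positive, against 46 of 292 tanycyte-like cells, where *Nkx2-1* was highest.

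The members were also read together in single neurons. *Hmx3* was found in 37.7% ± 8.93 of the control neurons that held *Hmx2* (SD over 6 embryos, 259 cells) and in 2.37% of those that did not. In *Eed-cKO* the shares were 36.7% ± 5.44 (8 embryos with at least 5 such cells, 159 cells) and 2.88%, and the share was higher beside *Hmx2* in 14 of 14 embryos. The genotypes were not told apart (exact permutation p = 0.783 over 3003 splits). *Nkx2-1* was found in 32.6% ± 8.53 of control neurons with *Nkx2-2* and 28.3% of those without, and in 31.7% ± 14.7 and 37.1% in *Eed-cKO*. *Hmx2* or *Hmx3* was found in 8.21% ± 2.98 of control neurons with *Nkx2-1* and 6.77% of those without, and in 8.12% ± 3.03 and 5.26% in *Eed-cKO*. *Nkx2-4* was found in 1.39% ± 1.66 and 0.422% in control, and 2.11% ± 1.18 and 1.32% in *Eed-cKO*. No pair differed between genotypes by exact permutation (p = 0.336, 0.953 and 0.891 for *Nkx2-1* with *Nkx2-4*, *Nkx2-1* with *Hmx2* or *Hmx3*, and *Nkx2-2* with *Nkx2-1*). A deeper cell holds more genes, so these shares in cells with and without a gene are not at equal depth. With each cell thinned to 2000 UMIs, *Nkx2-1* was found in 13.8% ± 7.52 of control neurons with *Nkx2-2* and 18.3% of those without. In *Eed-cKO* these shares were 18.6% ± 14.8 and 24.97%. The share was higher beside *Nkx2-2* in 2 of 15 embryos, against 6 of 15 unthinned. The thinned *Hmx3* share was higher beside *Hmx2* in 13 of 14 embryos. Beside *Nkx2-1*, the thinned share was higher in 12 of 15 for *Hmx2* or *Hmx3* and in 10 of 15 for *Nkx2-4*.

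Related genes give the setting, from lists chosen with earlier results of these data known. Of 12 other NK family genes, 7 were in the table and 6 were tested in neurons. Among the 6, 2 had 0 control UMIs and met the minimum of UMIs through *Eed-cKO* cells alone, so no median is given. Of the other 4 genes 2 were higher and 0 lower, beside 7.46% and 6.55% of all genes. *Nkx2-5*, known for its part in heart development, had 0 UMIs in control neurons and 242 in *Eed-cKO* neurons, at least 105-fold higher when control is set at 3 UMIs, and *Hmx1* had 0 and 196, at least 85.1-fold higher. *Nkx2-3* rose from 0.226 ± 0.206 CPM to 13 ± 3.21, a log2 fold change of 5.72 ± 0.34 (adjusted p = 3.6e-13). In Hox-positive against Hox-negative neurons *Nkx2-5*, *Hmx1* and *Nkx2-3* were higher too, by log2 fold changes of 3.46, 3.90 and 4.97 (adjusted p = 5.6e-14, 2.4e-16 and 5.7e-22). Of 38 hypothalamic regional regulators, 35 were tested in neurons, and 8 were higher and 7 lower (median −0.12), where 7.46% of all genes tested were higher and 6.55% lower. Between Hox-positive and Hox-negative neurons 12 of 34 were higher and 6 lower (median −0.03), where 6.51% of all genes were higher and 6.01% lower. Between genotypes, *Foxd1* was higher in *Eed-cKO* neurons (log2 fold change 4.12 ± 0.33, adjusted p = 1.9e-10), as was *Onecut2* (0.93 ± 0.08, adjusted p = 2.5e-09). *Dlx1*, a regulator of GABAergic neurons, was lower in *Eed-cKO* neurons (−0.92 ± 0.10, adjusted p = 7.9e-08) but higher in Hox-positive than in Hox-negative ones (0.86, adjusted p = 6.6e-13). Of the 24 tuberal peptide and transmitter genes, 3 were higher and 7 lower in *Eed-cKO* neurons (median −0.29), and between Hox-positive and Hox-negative neurons 0 of 22 tested were higher and 13 lower (median −0.93). Of the Hedgehog and ventral patterning genes, 18 of 20 were tested in neurons, with 4 higher and 0 lower (median 0.39), and in glia 6 of 19 were higher and 1 lower (median 0.83), where 788 of all 12988 genes were higher and 505 lower.

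Hox genes were nearly absent from control cells. Of the 34 in the table, 31 had enough UMIs to be tested in neurons and 27 in glia, and 29 and 27 of these had 0 control UMIs. Such genes met the minimum through *Eed-cKO* cells alone, so a count of those that were higher has no free outcome and is not given. The direction of a median over these genes is fixed in the same way, so none is given. *Hoxc10* had 0 control and 1894 *Eed-cKO* UMIs in neurons (at least 822-fold higher), *Hoxc13* 0 and 1442 (at least 626-fold), *Hoxa9* 0 and 880 (at least 382-fold), *Hoxd10* none in control (at least 360-fold) and *Hoxc8* 0 and 681 (at least 296-fold). Of 13 posterior and spinal regulators tested in neurons, 2 had 0 control UMIs, and 10 of the other 11 were higher in *Eed-cKO*, beside 7.46% of all genes. No median over the 13 is given, because the 2 met the minimum of UMIs through *Eed-cKO* cells alone. In Hox-positive against Hox-negative neurons 12 of the 13 were higher and 1 lower (median 3.47), beside 6.51% and 6.01% of all genes. The list held genes that the study had found raised in these mutants, such as *Tfap2a*, *Tfap2b*, *Pax2* and *Pax8*. Neither count is therefore independent of these data. *Tfap2b* was at 6.24 ± 3.99 CPM in control neurons and 102 ± 37.2 in *Eed-cKO* neurons, and *Tfap2a* at 0.603 ± 0.469 and 19.3 ± 2.92. *Tlx3* and *Pax2* were higher as well (log2 fold change 5.66 and 4.80; adjusted p = 3.6e-09 and 2.0e-09), and *Evx1* had 0 control and 20 *Eed-cKO* UMIs, at least 8.68-fold higher. Among markers of neighbouring tissue in neurons, 1 of 10 telencephalon genes was higher and 1 lower (median 0.13), and 0 of 10 thalamus and prethalamus genes were higher and 4 lower (median −0.58), beside 7.46% higher and 6.55% lower over all genes. In Hox-positive against Hox-negative neurons 4 of 10 telencephalon genes were higher and 3 lower (median 0.22). Of 9 thalamus and prethalamus genes 3 were higher and 2 lower (median 0.16), beside 6.51% higher and 6.01% lower over all genes.

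The genes most like each member over 20 clusters of control cells were named by Pearson's r of log2(CPM + 1), as a description over clusters of 1 set of libraries. *Hmx2* and *Hmx3* were most like each other (r = 0.884), followed by *Gpr101* (0.832) and *Ecel1* (0.828) for *Hmx2* and *Esr1* (0.853) and *Ago2* (0.835) for *Hmx3*. *Nkx2-1* was most like *E030019B13Rik* (0.944), then *Thoc2* (0.767) and *Arid1a* (0.754). *Nkx2-2* was most like *Zmat3* (0.785), *Agpat5* (0.753) and *2210015D19Rik* (0.731). For *Nkx2-4*, which had 52 UMIs in these cells, the values for *Rbmx* (0.694), *Wnt7a* (0.682) and *2900055J20Rik* (0.670) are weak. All of the named genes are the highest of many over only 20 clusters, and no r was set against chance.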

How the data were processed

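Single-cell 3′ RNA-seq libraries of the E18.5 mouse hypothalamus were made from 6 control and 9 *Eed-cKO* embryos. The authors aligned reads with STAR 2.5.2b to mm10 and deposited 1 table of UMI counts per cell and gene (14121 cells), which was used here as deposited. Clustering used scanpy 1.11.5 with leidenalg 0.10.2 (2000 variable genes without the 5 genes and the Hox genes, 30 principal components, 15 neighbours, resolution 1). A cluster was named when at least 3 markers of a type were raised at least 2-fold, by a rule settled after the clusters were seen. UMIs were summed per embryo over the clusters of a class, with at least 10 cells per sum. Genes with at least 15 UMIs in all and 2 in 1 sum were tested with edgeR 4.0.16 (quasi-likelihood, TMM, R 4.3.3), and p was adjusted by Benjamini and Hochberg over all genes tested. Hox-positive and Hox-negative neurons were compared with the embryo as a block. Shares of cells were compared by exact permutation of embryos, with a threshold of p below 0.05 that was not adjusted. Library size alone, DESeq2 1.42.0, limma 3.58.1 (voom and TREAT at 0.18) on libraries, other filters, clusterings and cell sets, thinning, and leaving out each embryo were tried. Possible doublets (droplets with more than 1 cell) were kept in the main results. As an alternative, the 6% of cells per library with the highest doublet scores (848 cells) were removed. An embryo held 5363119 to 7487417 UMIs in control and 658175 to 6299181 in *Eed-cKO*. Genes were named as up to 5 per list with adjusted p under 0.05, no overlap between genotypes and the largest change. The 5 genes and the 9 gene lists were chosen with earlier results of these data known.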

Additional observations from a re-analysis of the deposited data

Results flagged for a closer look

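In 3 of 32 groups of embryos searched, 1 embryo lay far from the others of its group, and chance alone gives about 1 in 20 groups. *Nkx2-1* in neurons was at 84.6 CPM in *Eed-cKO* embryo 7, while the other 8 embryos were at 177 to 270. *Hmx2* in Hox-negative neurons was at 23.8 CPM in *Eed-cKO* embryo 6, against 9.82 to 11.8 in the others. *Nkx2-4* in Hox-positive neurons was at 14.2 CPM in *Eed-cKO* embryo 9, from 3 UMIs in 63 cells, against 0 to 4.34 in the others.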

How the results depend on the processing

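Over the alternatives tried, with the fits that left out 1 embryo included, 813 values were labelled as the same. For the 5 genes, their shares and pairs this meant the same direction and side of the threshold. For a count of genes past the threshold it meant a similar size. Of the others, 58 turned direction, 15 newly passed the threshold, 7 no longer passed and 5 counts of genes moved. These follow, and the cause was not tested. With each cell thinned to 2000 UMIs, 1109 genes passed in neurons (2111 with all UMIs), 694 in glia (1293) and 1123 between Hox-positive and Hox-negative neurons (1760). With libraries as samples in limma-voom and TREAT, which also tests against a log2 fold change of 0.18 instead of 0, 1374 passed in neurons, and *Nkx2-4* in glia was at −0.12. Without the cluster with the most Hox-positive cells 251 genes passed, and *Hmx2* turned to 0.31. *Hmx3* in neurons turned to −0.062 with all variable genes, −0.086 with neurons taken by *Slc17a6* or *Slc32a1*, −0.028 with unnamed clusters counted as neurons and −0.038 without telencephalon and thalamus clusters, and *Nkx2-1* was no longer past the threshold in the second and last of these (0.36 and 0.35). Leaving clusters out and counting unnamed clusters were chosen after seeing the data. In Hox-positive against Hox-negative neurons *Hmx2* passed at −0.59 without a gene filter and −1.01 with at least 2 Hox UMIs, and against control neurons *Hmx2* (−1.02) and *Nkx2-1* (−0.85) then passed. For shares and pairs, unlike the fits, the threshold was an exact permutation p below 0.05 that was not adjusted. The share difference (percentage points) in neurons was 0.892 for *Nkx2-2* with at least 2 UMIs, no longer past the threshold, and after thinning 0.221 for *Hmx3* and 6.49 for *Nkx2-1*, now past it. In glia it was 0.311 (at least 2 UMIs) and 1.46 (thinned) for *Nkx2-2* and −0.433 (thinned) for *Hmx2*. Between Hox-positive and Hox-negative neurons *Hmx3* was at −0.808 not thinned and −0.332 thinned to 4000 UMIs. Pair differences turned to 1.33 (*Nkx2-1* with *Hmx2* or *Hmx3*) and 4.73 (*Nkx2-2* with *Nkx2-1*) after thinning, and 0.875 (*Hmx2* with *Hmx3*) and 0.155 (*Nkx2-1* with *Hmx2* or *Hmx3*) without doublets. Leaving out 1 embryo at a time gave, where a direction or call changed: neurons, *Hmx3* −0.061 to 0.28; glia, *Nkx2-2* −0.044 to 0.35; glia minus neurons, *Hmx2* −1.44 to 4.81 and *Nkx2-4* −0.54 to 0.80; Hox-positive against Hox-negative, *Hmx2* −0.81 to −0.38 (past the threshold without embryo 1); Hox-positive against control, *Hmx3* −0.41 to 0.11 and *Nkx2-1* −0.57 to −0.32 (past it without *Eed-cKO* embryo 1 or 5). Share differences ranged in neurons over −1.80 to −1.18 (*Hmx2*, past the threshold without control embryo 3 or *Eed-cKO* embryo 1, 3 or 6), −0.310 to 0.358 (*Hmx3*), 6.04 to 10.2 (*Nkx2-1*, past it without *Eed-cKO* embryo 7 or 9) and 0.819 to 1.16 (*Nkx2-4*, its call lost without control embryo 1, 2, 4 or 6), in glia over −0.351 to 0.470 (*Hmx2*), −0.00835 to 6.08 (*Nkx2-1*) and −2.07 to 1.11 (*Nkx2-2*), and between Hox groups over −1.43 to −0.828 (*Hmx2*, past it without embryo 2), −0.291 to 0.390 (*Hmx3*) and −0.414 to 0.0121 (*Nkx2-4*). Pair differences ranged over −3.53 to 1.04 (*Hmx2* with *Hmx3*), −0.759 to 0.775 (*Nkx2-1* with *Hmx2* or *Hmx3*) and −3.64 to 1.77 (*Nkx2-2* with *Nkx2-1*). Between genotypes, no paired analysis was possible because embryo numbers only name embryos and no litter held both genotypes. Few UMIs limit *Nkx2-4* everywhere and *Hmx2* and *Hmx3* in glia.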
